A study of Homo sapiens with 3 samples.

Results

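KLK5 to KLK14 are 10 neighbouring genes of the kallikrein-related peptidase family on chromosome 19. They were taken as the rows of the count table whose Ensembl identifiers map to these gene symbols, and they make up 10 of the 58037 genes listed. The study examined OLFM4, a secreted glycoprotein that marks stem cells in several epithelia, by knockout in RWPE1 cells, an immortalized line from normal human prostate epithelium, and the series also compares a library labelled as active for OLFM4 with the wild one. Bulk RNA was sequenced in 3 libraries, with 1 library per condition: OLFM4-wild, OLFM4-knockout and one labelled OLFM4-active. There were no replicates, so nothing was tested and every difference is between libraries. The GFP reporter lines were made by transfecting CRISPR/Cas9 plasmids for OLFM4 activation or double-nickase knockout, with a repair plasmid, into RWPE1 cells. Stable lines were selected with puromycin. The methods state that RNA came from GFP-sorted cells, and the study's results name the sorting for OLFM4-knockout cells. The methods describe activation plasmids in making the OLFM4-wild reporter line. Whether the sequenced OLFM4-wild library came from that line or from parental cells is not given in the sources used here. If it was parental, selection and sorting cannot be told apart from any difference that both other libraries share against it.

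Kallikrein-related peptidases are secreted serine proteases that are made as inactive precursors and switched on by cleavage, often by one another. In stratified epithelia KLK5, KLK7 and KLK14 cut the proteins that hold dead cells together, and the inhibitor encoded by SPINK5 restrains them. In the prostate the family is best known for KLK3, which encodes prostate-specific antigen.

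The enzymes differ in which bond they cut, and the coding sequence around the active site shows this. The 42 coding bases around the active-site serine codon are printed for the 5 members on which the results turn, with the codon at the base of the substrate pocket and the serine codon in capitals. Positions and sequence come from GENCODE version 44 on GRCh38, all on the minus strand of chromosome 19. In each gene an intron lies after base 21 of the stretch, so the coordinates span more than the bases shown. They are chr19:50943766-50948660 for KLK5, chr19:50977671-50979808 for KLK7, chr19:51003240-51003724 for KLK9, chr19:51014932-51015437 for KLK10 and chr19:51022677-51023112 for KLK11.
KLK5: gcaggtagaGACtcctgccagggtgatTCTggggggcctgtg
KLK7: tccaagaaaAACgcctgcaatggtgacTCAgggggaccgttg
KLK9: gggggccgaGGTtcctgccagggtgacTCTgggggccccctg
KLK10: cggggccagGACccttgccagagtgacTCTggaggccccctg
KLK11: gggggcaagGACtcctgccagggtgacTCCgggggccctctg
The pocket codon was GAC or GAT, both for aspartate, in 8 of the 10 members, the form found in trypsin-like enzymes that cut after arginine or lysine. KLK7 had AAC for asparagine and KLK9 had GGT for glycine. KLK7, which cuts in a chymotrypsin-like way, was also the member whose level differed most in the downward direction.

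The libraries differed in depth, with total counts of 16309906 in OLFM4-wild, 58837147 in OLFM4-knockout and 23224216 in the library labelled OLFM4-active. Levels are given as CPM, the count per 1e6 counts of the library size after edgeR's TMM scaling, and 3 counts corresponded to 0.165, 0.0584 and 0.126 CPM in that order. Values in parentheses after a level, share or difference are 95% Clopper-Pearson intervals, which cover counting error only. OLFM4 itself had 214, 131 and 16 counts, or 11.8, 2.55 and 0.670 CPM, so the library labelled OLFM4-active had the least OLFM4 and goes against its label. Basal markers were high throughout: all 6 were detected, and their summed level was 18139, 40149 and 21630 CPM. KRT5 gave 12232, 27077 and 13686 CPM of it and KRT14 gave 4006, 9666 and 5542 CPM. All 6 were highest in OLFM4-knockout, but TP63 was nearly level at 414, 472 and 450 CPM. KRT15, at 127, 359 and 97.2 CPM, was lowest in the library labelled OLFM4-active. Of 8 luminal markers, 7, 6 and 5 had a count, and their summed level was 470, 429 and 310 CPM. KRT8 gave 282, 231 and 146 CPM of it and KRT18 gave 177, 191 and 157 CPM. KLK3 was at 0 in all but the OLFM4-wild library, where it had 2 counts.

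The KLK5 to KLK14 genes as a group had 840, 5149 and 1026 counts in the OLFM4-wild library, the OLFM4-knockout library and the library labelled OLFM4-active. Their summed level was 46.2 CPM (43.2 to 49.5) in OLFM4-wild, 100.3 CPM (97.6 to 103.1) in OLFM4-knockout and 42.9 CPM (40.4 to 45.7) in the library labelled OLFM4-active. The sum was thus higher in the OLFM4-knockout library than in either other library, by 1.12 (1.01 to 1.22) on the log2 scale against OLFM4-wild and by 1.22 (1.13 to 1.32) against the library labelled OLFM4-active. Under TMM the library labelled OLFM4-active and the OLFM4-wild library differed by less than counting error, at -0.11 (-0.24 to 0.03). Library totals in place of TMM lower these differences by 0.353, 0.238 and 0.115 in the order given, and the last then lies beyond counting error. The summed level hides opposite differences. KLK10 and KLK5 were higher in the OLFM4-knockout than in the OLFM4-wild library, KLK7 was several-fold lower, and KLK11 was 1.35-fold (1.17 to 1.55) as high.

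**Figure D1:**
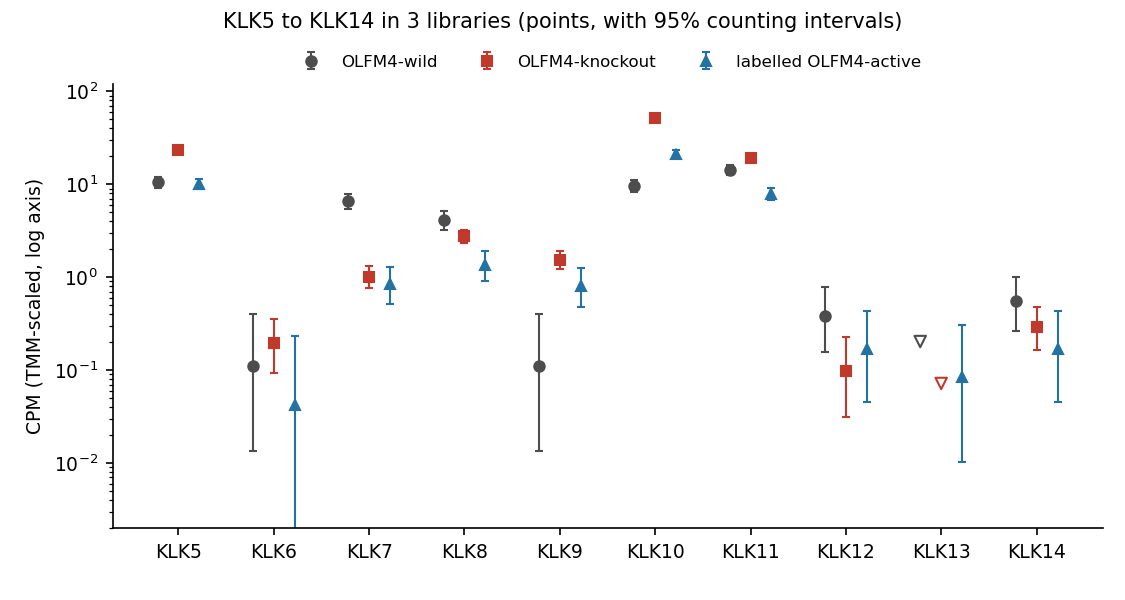
TMM-scaled CPM of each KLK gene (log axis) in the 3 libraries, with points for single libraries, bars for 95% counting intervals and open triangles at the upper limit where the count was 0; the interval of KLK6 in the library labelled OLFM4-active runs below the axis. KLK10 reached 51.8 CPM in OLFM4-knockout against 9.58 CPM in OLFM4-wild, while KLK7 stood at 6.60 CPM in OLFM4-wild and near 1 CPM in the other libraries.

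KLK10 encodes a secreted member of the family that was first described as a gene of normal breast epithelium lost in many breast cancer lines. It had 174 counts or 9.58 CPM (8.21 to 11.1) in OLFM4-wild, 2658 counts or 51.8 CPM (49.8 to 53.8) in OLFM4-knockout, and 512 counts or 21.4 CPM (19.6 to 23.4) in the library labelled OLFM4-active. The 3 intervals did not overlap. Relative to OLFM4-wild, KLK10 was 5.41-fold (4.64 to 6.34) as high in OLFM4-knockout and 2.24-fold as high in the library labelled OLFM4-active. On the log2 scale these are 2.43 and 1.16 (0.91 to 1.42), which placed KLK10 at percentile 99.7 and 97.4 of the 16600 genes that averaged 1 CPM or more.

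KLK5, a trypsin-like enzyme that starts the skin protease cascade, had 10.5 CPM (9.02 to 12.1; 190 counts) in OLFM4-wild, 23.4 CPM (22.1 to 24.7; 1200 counts) in OLFM4-knockout and 10.2 CPM (8.93 to 11.5; 243 counts) in the library labelled OLFM4-active. It was higher in the OLFM4-knockout library alone, with log2 differences of 1.16 (0.94 to 1.39) against OLFM4-wild and 1.20 (1.0 to 1.41) against the library labelled OLFM4-active. Between the other 2 libraries the difference was -0.04 (-0.32 to 0.24). KLK11, a trypsin-like enzyme made in prostate and brain, had 14.3, 19.3 and 7.91 CPM (260, 989 and 189 counts) in OLFM4-wild, OLFM4-knockout and the library labelled OLFM4-active. It was lower in the library labelled OLFM4-active by a log2 difference of -0.85 (-1.13 to -0.58) against OLFM4-wild. Its difference of 0.43 (0.23 to 0.63) between OLFM4-knockout and OLFM4-wild came to 0.07 with library totals in place of TMM, a scaling under which the median of all 16600 genes also moved from 0.10 to -0.26.

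KLK7, the chymotrypsin-like enzyme of the cascade, went the other way. It had 120 counts or 6.60 CPM (5.48 to 7.90) in OLFM4-wild, 52 counts or 1.01 CPM (0.757 to 1.33) in OLFM4-knockout and 20 counts or 0.837 CPM (0.511 to 1.29) in the library labelled OLFM4-active. The OLFM4-wild level was thus 6.52 times the OLFM4-knockout level and 7.89 times that of the library labelled OLFM4-active, with log2 differences of -2.70 (-3.20 to -2.22) and -2.95 (-3.74 to -2.29). The last 2 libraries overlapped, with a log2 difference of 0.25 (-0.49 to 1.10) between OLFM4-knockout and the library labelled OLFM4-active. KLK7 lay at percentile 0.645 and 0.542 of the same 16600 genes in the comparisons against OLFM4-wild. In bulk RNA, fewer KLK7-expressing cells and less KLK7 RNA per cell cannot be told apart.

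KLK8, or neuropsin, a trypsin-like enzyme of brain and skin, had 75, 141 and 32 counts, or 4.13 CPM (3.25 to 5.17) in OLFM4-wild, 2.75 CPM (2.31 to 3.24) in OLFM4-knockout and 1.34 CPM (0.916 to 1.89) in the library labelled OLFM4-active. KLK9, a little-studied chymotrypsin-like member, had 2, 79 and 19 counts, or 0.110, 1.54 and 0.795 CPM. The KLK9 ratio of OLFM4-knockout to OLFM4-wild was 14, with a counting interval of 3.74 to 117, since it rests on 2 counts in the OLFM4-wild library. These genes could not be separated cleanly. Only 53 of the 1443 exon bases of KLK9 (3.67%), and 1118 of the 1865 of KLK8 (59.9%), belong to no other gene of the same strand, because ENSG00000269741 spans both loci and had 60, 228 and 47 counts. KLK8 and KLK9 were also the 1 pair among 45 whose transcripts share a run of 75 bases, the length of a read. Summed over the 3 genes the locus had 137, 448 and 98 counts, with log2 differences of 0.21 (-0.07 to 0.50) for OLFM4-knockout and -0.88 (-1.27 to -0.49) for the library labelled OLFM4-active, both set against OLFM4-wild. KLK9 gave only 2 of the 137 locus counts in OLFM4-wild, so the sum can neither show nor exclude its excess.

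The remaining members were at the edge of detection. KLK14, a trypsin-like enzyme that can activate KLK5, had 10, 15 and 4 counts, or 0.550, 0.292 and 0.167 CPM. KLK12, a trypsin-like enzyme, had 7, 5 and 4 counts, or 0.385, 0.097 and 0.167 CPM. The log2 differences of OLFM4-knockout against OLFM4-wild were -0.94 (-2.16 to 0.40) for KLK14 and -1.95 (-3.98 to -0.11) for KLK12. KLK6, or neurosin, a trypsin-like enzyme abundant in brain, had 2, 10 and 1 counts and a ratio of 1.77 (0.377 to 16.6) in the same comparison. KLK13 had 0, 0 and 2 counts. Taken as 3 counts of the total, a count of 0 allows KLK13 a share of up to 0.357% of the KLK5 to KLK14 counts in OLFM4-wild and 0.0583% in OLFM4-knockout.

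The study counted genes beyond a log2 difference of 2, and members are given by the same measure. In OLFM4-knockout against OLFM4-wild, 2 members lay above 2, KLK9 and KLK10, where 2.51% of the 32894 genes with a count in either library did, and 1 lay below -2, KLK7, where 13.1% did. Of the 5 members that averaged 1 CPM or more, KLK10 lay above and KLK7 below, against 0.663% and 1.44% of all genes at that level. At a log2 difference of 1, KLK5, KLK9 and KLK10 lay above (10.1% of genes did), and KLK7 and KLK12 below (24.2% did). When the library labelled OLFM4-active was set against OLFM4-wild, KLK9 lay above 2 (4.09% of 31899 genes did) and KLK7 below -2 (9.02% did). At a difference of 1, KLK9 and KLK10 lay above (14.8%) and KLK7, KLK8, KLK12 and KLK14 below (22.4%). For KLK12 and KLK14 that position rests on 4 counts each in the library labelled OLFM4-active. Their intervals reached across 0, at -3.42 to 0.77 and -3.84 to 0.08. When OLFM4-knockout was set against the library labelled OLFM4-active, no member lay beyond 2 in either direction (3.92% and 8.91% of 32537 genes did). There 5 members, KLK5, KLK6, KLK8, KLK10 and KLK11, lay above a log2 difference of 1, against 12.3% of all genes, and 0 lay below -1, against 18.1%. For KLK6 that position rests on 10 and 1 counts, and with library totals in place of TMM KLK5 and KLK8 stood at only 0.96 and 0.78. The comparisons share libraries and are not independent.

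**Figure D2:**
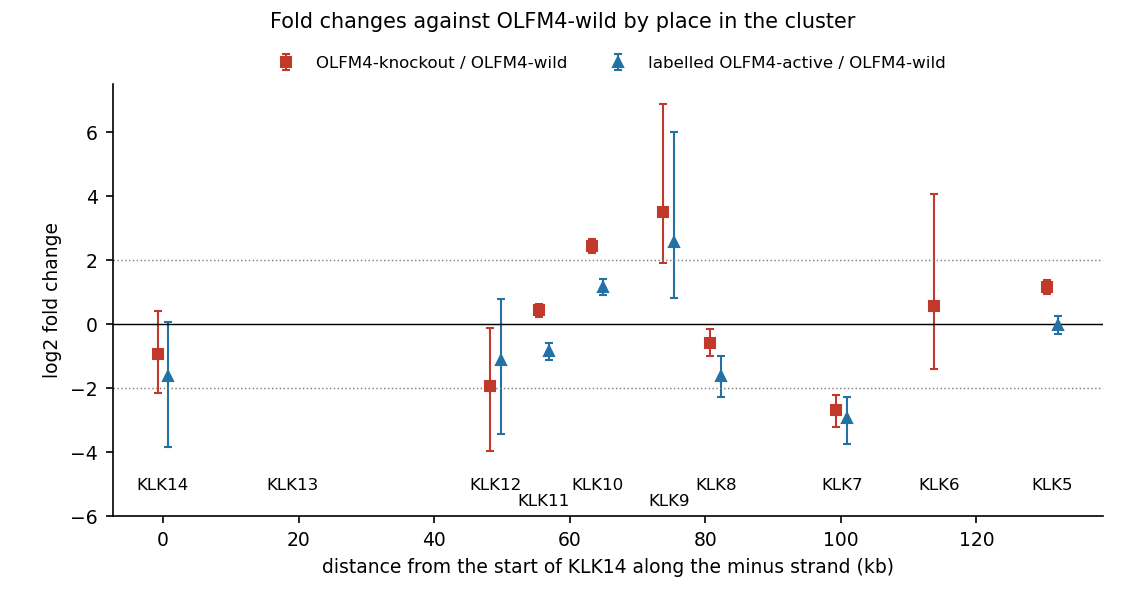
Log2 fold change of each KLK gene against OLFM4-wild (vertical axis) by distance from the start of KLK14 along the minus strand in kb (horizontal axis), with squares for OLFM4-knockout, triangles for the library labelled OLFM4-active, bars for 95% counting intervals and dotted lines at 2 and -2; no value is drawn where both counts were at 3 or fewer. KLK10 lies at 2.43 and 1.16, whereas KLK7 lies at -2.70 and -2.95.

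Along the cluster, the members above 0 in OLFM4-knockout against OLFM4-wild were KLK5 and KLK6, then KLK9, KLK10 and KLK11, and those below 0 were KLK7 and KLK8, then KLK12 and KLK14. The intervals of KLK6 and KLK14 reached across 0, and no test of position was made. Over the alternatives KLK8 ranged from -0.94 to 0.21, and KLK11 came to 0.07 with library totals. KLK8 and KLK9 could not be separated cleanly, so these signs are not settled either. KLK7 spans chr19:50976468-50984099 and KLK10 spans chr19:51012739-51020175, both on the minus strand. The stretches upstream of their RefSeq starts (GRCh38.p14, minus strand) are shown because these 2 members differed most in opposite directions among those that averaged 1 CPM or more. They cover chr19:50984100-50984314 for KLK7 and chr19:51019710-51019819 for KLK10, leaving out annotated exon bases only. The KLK10 stretch lies inside the annotated span of KLK10, below the end of its gene, so it may be transcribed from a start further upstream. Capitals mark the GC box GGGCGG on either strand.
KLK7: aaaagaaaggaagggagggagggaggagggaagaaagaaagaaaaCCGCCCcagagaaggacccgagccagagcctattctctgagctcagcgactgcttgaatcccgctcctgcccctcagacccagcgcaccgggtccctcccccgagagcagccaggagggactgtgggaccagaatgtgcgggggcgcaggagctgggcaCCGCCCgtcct
KLK10: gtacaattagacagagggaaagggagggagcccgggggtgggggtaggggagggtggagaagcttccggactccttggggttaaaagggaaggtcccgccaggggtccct
In RefSeq windows from 250 bases before to 50 after each start, GGGCGG was found in 10 of the 16 windows of the 9 members that have one, in those of KLK7 but not of KLK10, and in 45.0% of all 35116 windows. The TATA core TATAA was found in 5 of the 16, of KLK5, KLK7 and KLK14, and in 20.4% of all windows. CACGTG, an E-box bound by MYC, the AP-1 site TGANTCA and the palindromic steroid receptor element were in no member window, and in 7.26%, 7.71% and 0.0456% of all windows. All were searched on both strands, and GGGCGG and TATAA do not overlap each other. A match is a description of letters only.

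Within a library, the makeup of the KLK5 to KLK14 counts does not depend on scaling between libraries. KLK10 supplied 20.7% (18.0 to 23.6) of them in OLFM4-wild, 51.6% (50.2 to 53.0) in OLFM4-knockout and 49.9% (46.8 to 53.0) in the library labelled OLFM4-active. KLK11 supplied 31.0% (27.8 to 34.2), 19.2% (18.1 to 20.3) and 18.4% (16.1 to 20.9) in the same order. KLK7 supplied 14.3% (12 to 16.8), 1.01% (0.755 to 1.32) and 1.95% (1.19 to 2.99). The share of KLK10 was therefore larger, and those of KLK11 and KLK7 smaller, in both other libraries than in OLFM4-wild, whereas KLK5 stayed between 22.6% and 23.7%. KLK8 went from 8.93% in OLFM4-wild to 2.74% and 3.12%. The intervals of the OLFM4-knockout library and the library labelled OLFM4-active overlapped for each of these genes, for KLK7 only at their edges. Overlap of separate intervals does not show equal shares, and the KLK7 shares of 1.01% and 1.95% were not close. The summed level of the family differed between these libraries by 1.22 on the log2 scale. The ratio of KLK10 to KLK11 counts was 0.669 (0.549 to 0.814) in OLFM4-wild, 2.69 (2.50 to 2.89) in OLFM4-knockout and 2.71 (2.29 to 3.22) in the library labelled OLFM4-active. The ratio of KLK10 to KLK7 counts was 1.45 (1.14 to 1.85), 51.1 (38.9 to 68.6) and 25.6 (16.4 to 42.3).

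**Figure D3:**
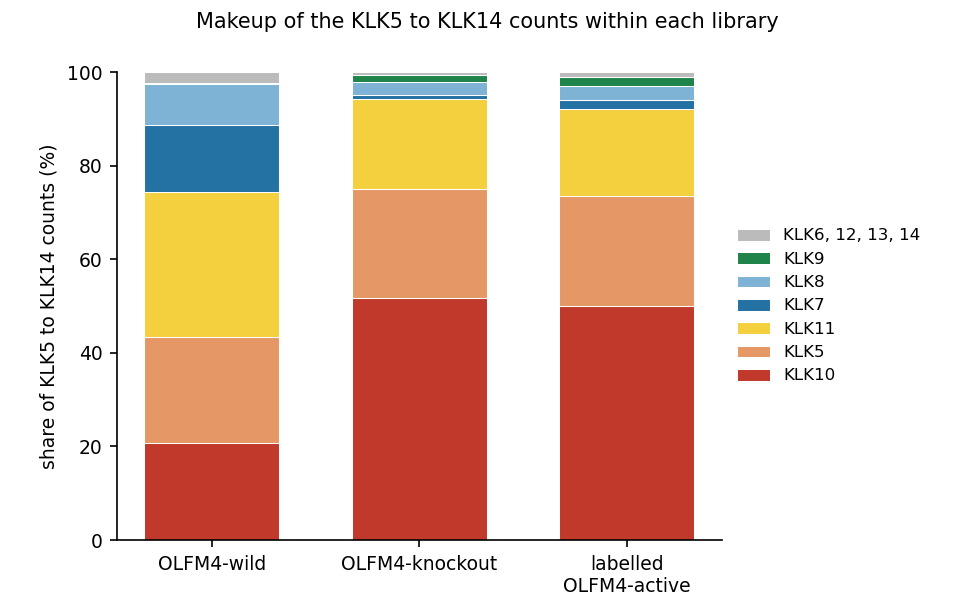
Stacked shares of the summed KLK5 to KLK14 counts (percent, vertical axis) in the 3 libraries, 1 bar per library. KLK10 takes 20.7% in OLFM4-wild and 51.6% and 49.9% in the other bars, while KLK7 shrinks from 14.3% to 1.01% and 1.95%.

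Levels of different genes were compared per kb of exon. In OLFM4-wild the order was KLK5 (6.33 CPM per kb), KLK11 (4.60), KLK7 (2.70), KLK10 (2.52) and KLK8 (2.21). The intervals of KLK7 and KLK10, and of KLK10 and KLK8, overlapped, while KLK11 and KLK7 did not. In OLFM4-knockout KLK5 (14.1 CPM per kb) and KLK10 (13.6) headed the order with overlapping intervals, followed by KLK11 (6.19), KLK8 (1.47), KLK9 (1.07) and KLK7 (0.414). The order was KLK5, KLK10, KLK11, KLK8, KLK9 and KLK7 in the library labelled OLFM4-active too, at 6.15, 5.64, 2.54, 0.718, 0.551 and 0.342 CPM per kb. Places of KLK8 and KLK9 in these orders are not settled. All their exon bases were used as length, though only 59.9% and 3.67% of them belong to no other gene of the same strand. KLK5 thus headed the order in each library by this length, and KLK10 stood in place 4 in OLFM4-wild and in place 2 in the others. The lead rests on the length used: per kb of the longest transcript KLK11 headed OLFM4-wild and KLK10 headed both other libraries.

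KLK10 was also read together with ENSG00000268739, an annotated antisense gene of 240 exon bases that all lie inside a KLK10 exon (chr19:51014374-51014734, plus strand). It had 64, 960 and 222 counts, or 36.8, 36.1 and 43.4 per 100 KLK10 counts in OLFM4-wild, OLFM4-knockout and the library labelled OLFM4-active. Per exon base its density was 5.82, 5.72 and 6.86 times that of KLK10. The methods state strand-specific counting. Yet over 165 annotated antisense genes that lie wholly inside exons of coding genes with at least 500 counts, the median density was 1.49, 1.52 and 1.48 times that of the coding gene. Reads of KLK10 and of its antisense gene therefore cannot be told apart here, and the cause was not tested. With the antisense counts added, KLK10 kept its direction in each comparison. The antisense gene ENSG00000269495 at KLK5 and KLK6 had 6, 114 and 15 counts, which is more than KLK6 itself in each library.

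The other 5 genes of the cluster gave almost no reads. KLK1, tissue kallikrein, had 3, 0 and 4 counts, KLK3, or prostate-specific antigen, had 2, 0 and 0, and KLK2, KLK4 and KLK15 were at 0 in the 3 libraries. KLK2, KLK3 and KLK4, the members known from luminal prostate cells, thus had at most 2 counts, while KLK5, KLK10 and KLK11 of the same cluster had 174 to 2658 counts.

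Of 12 inhibitors of the family, 10 had more than 3 counts in the OLFM4-knockout or the OLFM4-wild library, and 5 of these lay below a log2 difference of -2 and 0 above 2, beside 7.59% and 3.14% of all genes with more than 3 counts. SPINK5, whose product LEKTI inhibits KLK5, KLK7 and KLK14, had 117 CPM in OLFM4-wild, 21.3 CPM in OLFM4-knockout and 20.4 CPM in the library labelled OLFM4-active. A2ML1, a protease-trapping protein of the epidermis, had 115, 25.8 and 14.2 CPM, and SPINK6, an inhibitor of KLK5, KLK7 and KLK14, had 12.3, 5.14 and 4.65 CPM. These 3 were highest in OLFM4-wild, as KLK7 was. SPINK5 differed by -2.46 (-2.57 to -2.35) and A2ML1 by -2.16 (-2.26 to -2.06) on the log2 scale in OLFM4-knockout against OLFM4-wild. SERPINA1 had 41, 4 and 2 counts and SPINK7 had 21, 2 and 3. The Kunitz-type inhibitors of membrane proteases stood apart, with 104, 126 and 95.6 CPM for SPINT1 and 202, 293 and 187 CPM for SPINT2. Over the 5 inhibitors that averaged 1 CPM or more, the median log2 difference was -1.26 in OLFM4-knockout and -1.40 in the library labelled OLFM4-active, beside 0.10 and 0.05 over all 16600 genes.

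Of 9 proteases that activate or act with the family, 6 had more than 3 counts and 0 lay beyond a log2 difference of 2 in either comparison with OLFM4-wild, where 10.7% of all genes with more than 3 counts did in each, so that a count of 0 among 6 says little about them. Over the 5 that averaged 1 CPM or more the median log2 difference was -0.13 in OLFM4-knockout and -1.0 in the library labelled OLFM4-active. ST14, or matriptase, a membrane protease able to activate KLK5, had 129, 218 and 128 CPM. It was higher in the OLFM4-knockout library by 0.75 (0.69 to 0.82) on the log2 scale and level with OLFM4-wild in the library labelled OLFM4-active, at -0.01 (-0.09 to 0.07), the order seen for KLK5. PRSS8, or prostasin, which acts with matriptase, had 36.0, 16.9 and 16.6 CPM. TMPRSS13, a membrane serine protease, had 22.7, 20.8 and 10.8 CPM, and PLAU, or urokinase, had 69.0, 82.2 and 47.2 CPM, both lowest in the library labelled OLFM4-active.

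Among 10 reported substrates, 9 had more than 3 counts in OLFM4-knockout or OLFM4-wild, of which 3 lay below a log2 difference of -2 and 0 above 2, with the same shares over all genes. FLG, or filaggrin, a protein of the cornified layer, had 191, 5.92 and 6.49 CPM. DSC1, a desmosomal cadherin of upper epidermal layers, had 28.5, 1.36 and 1.84 CPM, and CDSN, or corneodesmosin, a target of KLK5 and KLK7, had 16.8, 3.12 and 3.10 CPM. All 3 were highest in OLFM4-wild and close to each other in the other libraries. DSG1, the desmosomal cadherin cut during shedding, had 303, 164 and 135 CPM. IGFBP3, a carrier of insulin-like growth factors, had 185, 52.5 and 23.2 CPM, below -2 only in the library labelled OLFM4-active, at -2.99. F2RL1, the receptor PAR2 that KLK5 and KLK14 can activate, had 85.5, 122 and 102 CPM. The median over the 9 that averaged 1 CPM or more was -0.92 in OLFM4-knockout and -1.17 in the library labelled OLFM4-active.

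**Figure D4:**
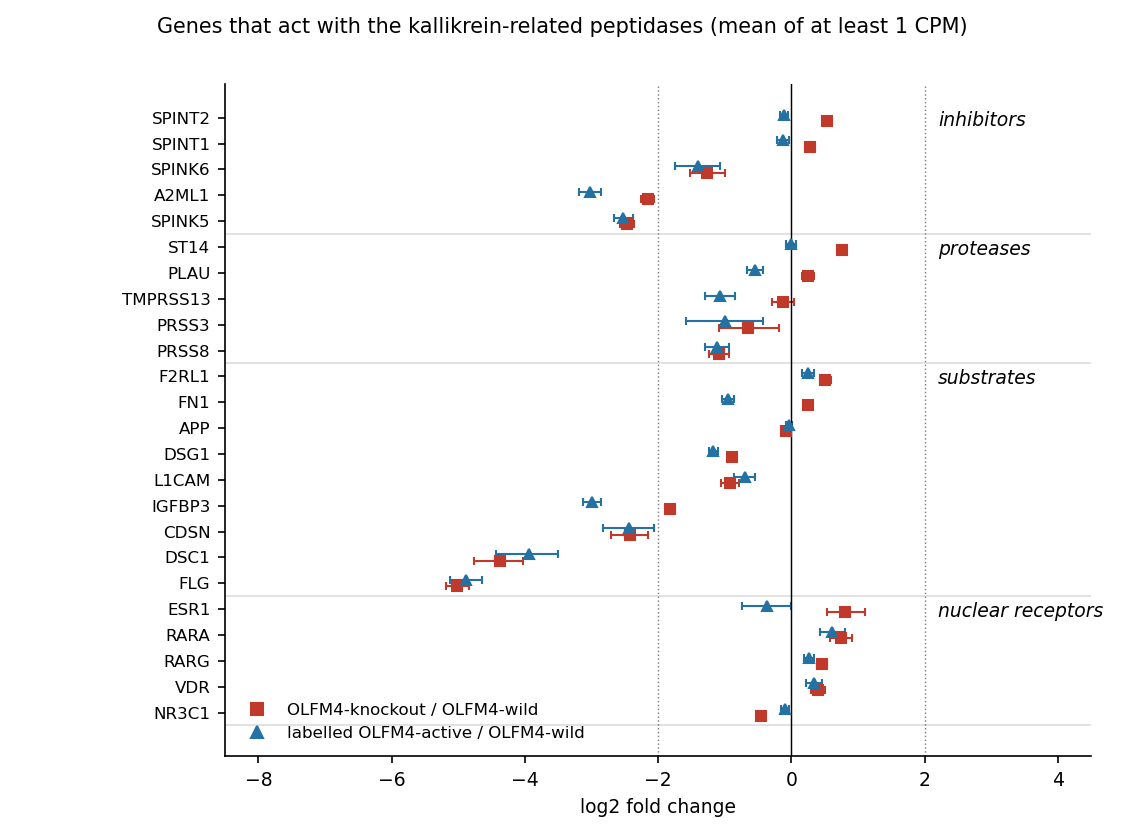
Log2 fold changes against OLFM4-wild (horizontal axis) of the inhibitors, proteases, substrates and nuclear receptors that averaged 1 CPM or more, with squares for OLFM4-knockout, triangles for the library labelled OLFM4-active, bars for 95% counting intervals and dotted lines at 2 and -2. FLG, DSC1, CDSN, SPINK5 and A2ML1 lie below -2 for both, and ST14 lies at 0.75 and -0.01.

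Several markers of differentiating squamous epithelium moved with KLK7, but not all. All 8 had a count in OLFM4-wild and in the library labelled OLFM4-active, and 7 in OLFM4-knockout, where LORICRIN was at 0. Their summed level was 1883, 1470 and 1048 CPM, of which KRT10 supplied 1217, 1331 and 842 CPM. KRT1, the suprabasal keratin, had 463, 80.2 and 137 CPM, SBSN had 35.8, 3.49 and 5.48 CPM and KRTDAP had 61.3, 4.11 and 2.43 CPM. SPRR1B had 89.6, 41.9 and 51.7 CPM, and SPRR3 had 5.34, 0.0584 and 0.0419 CPM. IVL was nearly level, at 11.0, 9.19 and 9.46 CPM, and KRT10 was not lower in OLFM4-knockout than in OLFM4-wild. The part of these markers in the level of KLK7 was not tested. Endothelial and leukocyte markers that define those cells were at or near 0, with CDH5 and CD3E at 0 in the 3 libraries, while CD68 supplied nearly all of the leukocyte sum of 31.4, 24.4 and 19.8 CPM.

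The genes whose pair of log2 differences against OLFM4-wild lay nearest to that of KLK10 and KLK7 were sought among 10594 genes that averaged 10 CPM or more over the 3 libraries. For KLK10 they were its antisense gene ENSG00000268739 (distance 0.23), MSLN, or mesothelin (0.32), and S100A2, a calcium-binding protein of basal epithelium (0.33). Reads of the antisense gene could not be told apart from those of KLK10, so its nearness is not an independent match. MSLN had log2 differences of 2.52 and 0.85 in OLFM4-knockout and in the library labelled OLFM4-active, and S100A2 had 2.13 and 1.02. For KLK7 they were S100A8, a calcium-binding protein of inflamed epithelium (0.16), EHF, an epithelial ETS transcription factor (0.18), and TMEM45A, a transmembrane protein of keratinizing epidermis (0.21). Their differences lay between -2.60 and -2.83 in OLFM4-knockout and between -3.06 and -3.11 in the library labelled OLFM4-active.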

How the data were processed

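The authors aligned read pairs of ribosome-depleted, stranded total RNA to GRCh38 with HISAT2 and counted uniquely mapped pairs per gene with featureCounts, set to reversely stranded, and the submitters' processing notes also name cutadapt. The deposited values are whole-number counts per gene, not normalized, in 3 columns that each name their library, and 0 columns were left unused. Of the 58037 identifiers, 98.1% were in GENCODE version 44, which gave positions and exon lengths.

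Library sizes were scaled with TMM (edgeR 4.0.16, R 4.3.3) over the whole table. Log2 differences used an offset of 0.5 counts, as in limma-voom (limma 3.58.1), with 95% conditional Clopper-Pearson intervals (Python 3.11.15, scipy 1.17.1). A fold was not given where both counts were 3 or fewer. With 1 library per condition no test was made. Depth limits precision: a count of 3 is 0.165 CPM in the shallowest library. The procedure was tested on simulated data. Promoter windows were in RefSeq (GRCh38.p14) for 9 of the 10 members, not for KLK8.

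Named are all 10 members, OLFM4, genes overlapping a member, the 3 nearest patterns to the members that are highest or differ most, and up to 6 genes per list with a mean of at least 10 CPM, or of at least 1 CPM and past a log2 difference of 2. SPINK6, SPINK7, SERPINA1, ESR1, PGR, KLK1 to KLK4, KLK15, some markers and the cluster's neighbours fall outside that rule and were named from their lists after their values were seen. Some results under these lists are not reported here. Members and lists were chosen with earlier results of these data known. Alternatives were library totals, DESeq2 1.42.0 size factors, upper quartile factors, offsets of 1 and 5 counts, thinning to 16309906 counts, a log2 fold of 1, a mean of 1 CPM for the background, the longest transcript for lengths and counts of overlapping same-strand genes added. The antisense genes added, more than 3 counts for the background, and leaving out KLK8 and KLK9 were chosen after seeing the data.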

Additional observations from a re-analysis of the deposited data

How the results depend on the processing

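No paired analysis was possible because each condition has 1 library, and for the same reason no library could be left out. DESeq2 size factors and an offset of 1 count changed no count of members past the fold. In OLFM4-knockout against OLFM4-wild, members below -2 became 2 (KLK7 and KLK12) with library totals, with upper quartile factors, with thinning and at a log2 fold of 1, and members above 2 became 1 (KLK10) with same-strand overlapping genes added or without KLK8 and KLK9. For the library labelled OLFM4-active set against OLFM4-wild, members above 2 became 0 with an offset of 5 counts, with same-strand genes added and without KLK8 and KLK9. There, at a log2 fold of 1, 2 lay above and 4 below. For OLFM4-knockout set against the library labelled OLFM4-active, 5 lay above at that fold, of which KLK5 and KLK8 did not with library totals (0.96 and 0.78). KLK9 in the library labelled OLFM4-active reversed, to -0.88, with same-strand genes added, a sum made up mostly of the other genes' counts. The background at a mean of 1 CPM was 0.663% above and 1.44% below in the first comparison, 0.506% and 1.54% in the second and 0.259% and 0.175% in the third, and with more than 3 counts 7.59% below in the first and 4.21% below in the third. With the longest transcript as length, 6 of 10 members kept their place in the OLFM4-wild order, KLK5, KLK8, KLK10 and KLK11 changing places, and KLK5 and KLK10 changed places in both other libraries. KLK10 ranged from 2.08 to 2.46 and KLK7 from -3.05 to -2.39 in OLFM4-knockout against OLFM4-wild over the alternatives. KLK6 (-0.40 to 2.41) and KLK8 (-0.94 to 0.21) changed sign there, so neither has a settled direction. Depth limits KLK6, KLK12, KLK13 and KLK14, which had at most 15 counts in a library.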

Other observations

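Nuclear receptors that bind steroids, retinoids and vitamin D were measured beside the KLK genes, which several of these hormones are known to regulate. NR3C1, the glucocorticoid receptor, had 226, 164 and 212 CPM in OLFM4-wild, OLFM4-knockout and the library labelled OLFM4-active. PGR, the progesterone receptor, was at 0 in each. In the same order RARG had 113, 155 and 135 CPM, VDR had 51.3, 67.4 and 65 CPM, and ESR1, an estrogen receptor, had 6.88, 12.1 and 5.32 CPM. Of the 5 receptors that averaged 1 CPM or more, 0 lay beyond a log2 difference of 2, where 2.1% and 2.04% of all genes at that level did, and their median was 0.46 in OLFM4-knockout and 0.27 in the library labelled OLFM4-active, both set against OLFM4-wild.

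The protein-coding genes flanking the KLK span were also read. Beyond KLK14, CTU1, which modifies tRNA, had 93, 675 and 191 counts, or 5.12, 13.1 and 7.99 CPM, the order seen for KLK10, while SIGLEC9 and SIGLEC7, of myeloid and lymphoid cells, were at 0. Beyond KLK5, ACP4, an acid phosphatase of enamel formation, had 2, 98 and 40 counts, or 0.110, 1.91 and 1.67 CPM, SMIM47 had 3, 14 and 23 counts, and GPR32 was at 0.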
